A study of Mus musculus with 2 samples.

Results

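The genes described here are 10 genes of the midbrain dopamine neuron and its cofactor. They were listed by name, with earlier results of these data known, and the rule itself uses no value. They are the transcription factor genes Nr4a2, Foxa2, En1, Lmx1b and Pitx3, the dopamine synthesis genes Th and Ddc, and the tetrahydrobiopterin genes Gch1, Pts and Qdpr. Of these 10 genes, 6 had a probe that the platform's annotation names, with 7 probes in all, among 7939 genes and 9762 named probes of the series. Expression was measured on 2 Illumina bead arrays of SN4741 cells, an immortalized mouse line described in the labels as dopaminergic neuronal and grown at 33 C. RNA of cells at 0 h went onto the control array. The other array carried RNA taken 12 h into Oxi-beta overexpression. Each array held RNA pooled from 3 samples, so each group had 1 array, no difference could be tested across samples, and no p-value is given for a difference. The labels name neither the vector nor a mock-treated control, and no untreated array at 12 h was among the samples, so overexpression and time cannot be told apart. The name Oxi-beta is used for Tnfaip8l1, and no named probe carried that symbol.

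Dopamine is made from tyrosine in a pair of steps. Tyrosine hydroxylase, the product of Th, makes L-DOPA and is the rate-limiting enzyme, and aromatic L-amino acid decarboxylase, the product of Ddc, turns L-DOPA into dopamine. Tyrosine hydroxylase needs tetrahydrobiopterin, which is built from GTP by GTP cyclohydrolase (Gch1), 6-pyruvoyltetrahydropterin synthase (Pts) and sepiapterin reductase, and which dihydropteridine reductase (Qdpr) regenerates after each reaction. In the developing midbrain, Foxa2 acts in floor plate progenitors. En1, Lmx1b, Nr4a2 (NURR1) and Pitx3 act in the specification, maturation and survival of dopamine neurons, and NURR1 and PITX3 are known activators of Th.

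Promoter sequences are shown for 4 of the members that were read above background, as the stretches in which motifs of transcription factors were looked for. They are the 250 bases before each gene's annotated start in RefSeq (build GRCm38.p6), written 5′ to 3′ on the gene's own strand, and capitals mark every match to the motifs named afterwards. Nr4a2 lies on the minus strand at chr2:57124004-57124253, En1 on the plus strand at chr1:120602237-120602486, Gch1 on the minus strand at chr14:47189414-47189663 and Qdpr on the minus strand at chr5:45450230-45450479.
Nr4a2: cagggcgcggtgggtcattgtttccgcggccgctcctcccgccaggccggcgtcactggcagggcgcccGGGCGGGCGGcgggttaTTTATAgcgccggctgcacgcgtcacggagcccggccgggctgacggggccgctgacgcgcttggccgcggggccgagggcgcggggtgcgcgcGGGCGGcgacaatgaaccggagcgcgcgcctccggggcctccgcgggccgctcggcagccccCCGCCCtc
En1: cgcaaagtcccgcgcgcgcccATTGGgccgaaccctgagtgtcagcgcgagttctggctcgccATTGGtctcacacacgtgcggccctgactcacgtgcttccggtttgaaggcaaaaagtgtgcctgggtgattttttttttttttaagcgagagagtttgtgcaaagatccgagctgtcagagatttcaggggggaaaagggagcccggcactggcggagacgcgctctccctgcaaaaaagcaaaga
Gch1: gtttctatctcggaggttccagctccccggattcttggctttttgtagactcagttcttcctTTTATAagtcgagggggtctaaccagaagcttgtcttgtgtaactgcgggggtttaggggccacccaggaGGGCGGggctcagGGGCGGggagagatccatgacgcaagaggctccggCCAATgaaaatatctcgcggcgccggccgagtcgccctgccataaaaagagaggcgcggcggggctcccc
Qdpr: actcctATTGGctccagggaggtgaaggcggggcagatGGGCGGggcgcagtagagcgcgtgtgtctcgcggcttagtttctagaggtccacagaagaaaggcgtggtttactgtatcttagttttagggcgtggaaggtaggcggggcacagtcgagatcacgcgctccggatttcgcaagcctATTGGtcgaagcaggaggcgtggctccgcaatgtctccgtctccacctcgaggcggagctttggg

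All 10 genes had a promoter in the RefSeq table, with 13 windows in total because Foxa2 had 3 starts and Ddc had 2. Each 250-base window was searched on both strands, as was every one of the 32851 promoter windows of the table. The motif GAAANNGAA, a core of the interferon-stimulated response element, was in 0 of the 13 member windows and in 7.13% of all windows. The motif TTCNNNGAA, the gamma-activated sequence bound by STAT proteins, was also in 0 of 13 and in 7.02% of all windows. Neither result says anything about binding elsewhere at these genes. The motif TGACGTCA, the cyclic AMP response element, was in 1 member window, that of Th, where it ran from 45 to 38 bases before the start, and in 1.55% of all windows. The motif AAAGGTCA, which monomers of the NR4A family bind, was in 1 member window, a start of Ddc, and in 1.34% of all windows. That match, 73 to 66 bases before the start, overlapped a TATAAA match.

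The more common promoter motifs were spread over the members. CCAAT was in 6 of the 13 member windows and in 33.8% of all windows; En1 and Qdpr held 2 copies each on the opposite strand (ATTGG), and Gch1 held 1 copy 70 to 66 bases before its start. GGGCGG, the GC box bound by Sp1, was in 8 of the 13 member windows and in 32.7% of all windows. Nr4a2 held 4 copies, of which a pair overlapped by bases, and Gch1 held 2. TATAAA was in 4 of the 13 member windows and in 12.4% of all windows. The Nr4a2 window had a GC content of 80%, with 44 CpG dinucleotides, and 1.105% of all windows had a higher GC content. Median GC content was 59.6% over the 13 member windows and 52.4% over all windows, and the median CpG count was 17 against 6. Genes with several starts enter the member counts and medians more than once.

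None of the measured members differed between the arrays by as much as 1.5-fold. The 5 members read above background (Nr4a2, Foxa2, En1, Gch1 and Qdpr) had small positive differences between 0.10 and 0.24 on the log2 scale, and the probe of Pts was not well above background on either array. A probe counted as detected at a detection p-value under 0.01. This p-value comes with the deposited signals for each probe and array, and its smallest step in the file was 0.0012. The dimmest detected probe read 201 (control) and 196 (overexpression), while the median signal of probes with a detection p-value over 0.5 was 88.2 on each. Differences are overexpression minus control after background correction (offset 16) and quantile normalization of the 24613 probes of each array. Over the 6702 genes with a detected probe the median difference was -0.004, and the central 95% ran from -0.34 to 0.33.

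Among the transcription factor genes, 3 of 5 were detected, and these 3 were the only ones with a named probe. Of all genes with a named probe, 6702 of 7939 were detected. In this and the later counts, genes without a named probe are among those not detected. Nr4a2 encodes NURR1, an orphan nuclear receptor that midbrain dopamine neurons need in order to form. Its signal was 274 in the control and 295 after overexpression, at a detection p-value of 0.0024 on both arrays. The normalized log2 levels were 7.49 and 7.73, a difference of 0.24 or 1.18-fold, and 5.77% of the detected genes had a higher difference. This was the highest difference among the members. By each member's brightest probe, it was also the only one whose size exceeded 0.149, the spread between probes of the same gene. This spread is the root mean square SD over 999 genes with several probes detected on both arrays, all signal levels pooled. A dimmer probe of En1 (-0.17) exceeded it too, and by plain ratio of the deposited signals Nr4a2 (0.11) did not. That spread is no replicate error, since it compares probes within the arrays.

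Foxa2, a forkhead factor of the floor plate, gave nearly equal signals of 255 and 257 on the control and overexpression arrays. Detection p-values were 0.0049 and 0.0036. The difference after normalization was 0.10 or 1.07-fold, and the plain log2 ratio of the deposited signals was 0.011. In the control, the Foxa2 signal was 1.27 times and the Nr4a2 signal 1.37 times the lowest detected signal. Both genes therefore lay close to the limit of detection.

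En1, the homeobox gene Engrailed-1, had 2 named probes, which went in opposite directions. The brighter probe read 498 in the control and 513 after overexpression, at a detection p-value of 0 on both arrays, and its difference was 0.15 or 1.11-fold. The dimmer probe read 203 and 186. Its detection p-values were 0.0097 (control) and 0.0146 (overexpression), so only the control reading counted as detected, and the level after overexpression was at least 1.01-fold lower. The fitted difference of -0.17 for this probe is not taken as exact, since its reading after overexpression did not pass the detection limit. Both probes are annotated to the same RefSeq transcript. Probes of opposite sign were common on these arrays, at 48.9% of the 999 genes with several probes detected on both arrays.

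No probe was named for Lmx1b, a LIM homeobox gene, or for Pitx3, a paired-like homeobox gene restricted in the brain to midbrain dopamine neurons. The annotation used here is limited to the 11090 probes of the authors' value table, each of which had passed a detection p-value of 0.05 somewhere. Whether these 2 genes had a probe that stayed below that limit, or none at all, cannot be told apart.

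**Figure D1:**
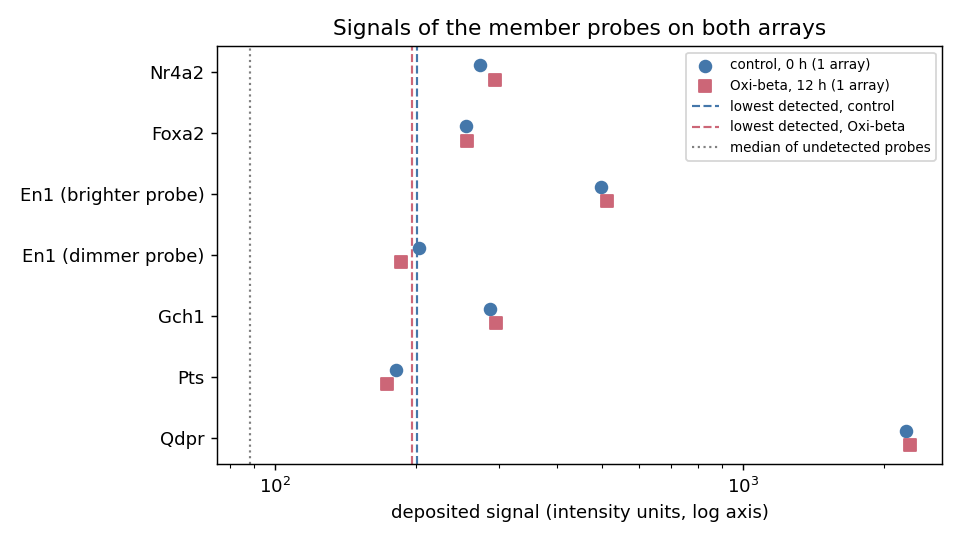
Deposited signal of each member probe (log axis, intensity units) on the control array (circles) and the overexpression array (squares), 1 array each. Dashed lines mark the lowest detected signal of each array (201 and 196). The dotted line marks the median of 88.2 over probes with a detection p-value over 0.5 on the control array. Qdpr and the brighter En1 probe lie well to the right of the dashed lines, Nr4a2, Foxa2 and Gch1 lie just to the right, and both Pts signals lie to the left.

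Th and Ddc, which carry out the steps from tyrosine to dopamine, both lacked a named probe, so 0 of 2 synthesis genes could be read. Slc6a3, the dopamine transporter gene, Slc18a2, the vesicular monoamine transporter gene, and Drd2, a dopamine receptor gene, also lacked one. For these genes too, a probe that stayed below the limit of the authors' value table and no probe at all cannot be told apart. Whether they were expressed below detection was not tested. The dopaminergic identity given in the labels therefore had no reading from its defining genes, and was neither borne out nor contradicted by them.

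Of the tetrahydrobiopterin genes, 2 of 3 were detected. Gch1 encodes GTP cyclohydrolase, the first and rate-limiting enzyme of the pathway, which cytokines including interferon-gamma are known to induce in several cell types. The Gch1 probe read 288 in the control and 296 after overexpression, and both readings had a detection p-value of 0.0024. The difference was 0.14, or 10.3% higher, within the spread between probes, and the plain log2 ratio was 0.039. Like Nr4a2 and Foxa2, Gch1 was read near the limit of detection, at 1.43 times the lowest detected signal in the control.

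Qdpr, whose product regenerates tetrahydrobiopterin, read 2226 in the control and 2269 after overexpression, both at a detection p-value of 0. These signals were 11.1 and 11.6 times the lowest detected signal of their arrays. Its difference was 0.11 or 1.08-fold, and the plain log2 ratio was 0.028. The normalized difference was 0.104 without background correction and 0.109 with it.

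Pts, which encodes the enzyme of the second step, read 181 in the control and 173 after overexpression. Its detection p-values of 0.0146 and 0.0195 passed 0.05 but not 0.01 on both arrays. Its fitted difference of -0.049 is not read as a fold, since both readings lay below the lowest detected signal.

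**Figure D2:**
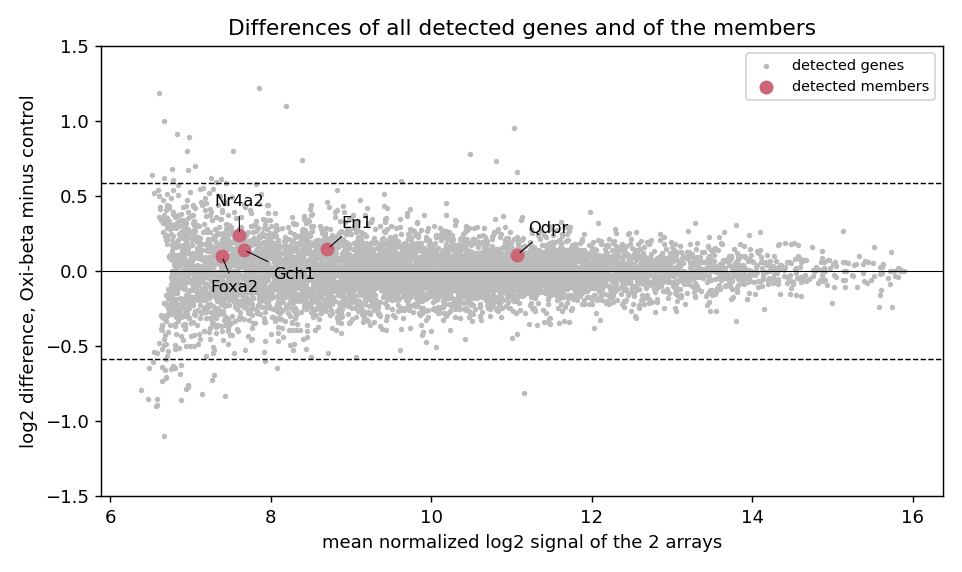
Log2 difference (overexpression minus control) against the mean normalized log2 signal for the 6702 detected genes (grey) and the 5 detected members (red). Dashed lines mark 1.5-fold, and 15 genes beyond 1.5 on the log2 scale lie outside the axis. All 5 members sit above 0 and inside the grey cloud, below the upper dashed line.

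At 1.5-fold or more, 0 of 5 detected members were higher, beside 0.582% of all detected genes, and 0 of 5 were lower, beside 0.433%. Among genes detected on both arrays, as all 5 members were, 0.340% were past 1.5-fold in either direction. At 1.1-fold or more, a small threshold taken with the values known, 3 of 5 members were higher (Nr4a2, En1 and Gch1), beside 15.5% of all detected genes. That count fell to 1 of 5 (Nr4a2) with offset 50, without background correction, with floored signals and in the authors' deposited value table, and to 0 of 5 by plain ratio. All 5, each by its brightest probe, had a positive difference, beside 48.6% of all detected genes. They stayed positive by plain ratio, where 25.1% of all detected genes did. The dimmer En1 probe (-0.17) and the undetected Pts probe (-0.049) were negative, and En1 was at -0.010 by the mean of its probes. The median over the 5 members was 0.14 beside -0.004 over all genes. With 1 array a group these counts describe the arrays and carry no error from replicates. By their brightest probes, all but Nr4a2 differed by less than the spread between probes.

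The spread of differences among all genes depended on signal. In the quartile of detected genes with the lowest normalized levels, which held Nr4a2, Foxa2 and Gch1, the SD of the differences was 0.34 and the central 95% ran from -0.51 to 0.51. In the second quartile, with En1, it ran from -0.30 to 0.33, and in the third quartile, with Qdpr, from -0.26 to 0.24. Each of the 5 members lay inside the central 95% of its quartile.

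The size of the differences depended on how the signals were treated, while each of the 5 stayed positive by its brightest probe under the 6 treatments besides the main one. By plain ratio of the deposited signals, with no correction or normalization, the 5 differences ran from 0.011 for Foxa2 to 0.11 for Nr4a2, with a median of 0.039. On that scale the median over all detected genes was -0.079, so the members' median stood 0.118 above it. Nr4a2 was 0.17 in the authors' deposited value table and 0.24 after background correction. The brighter En1 probe was 0.12 in the authors' deposited value table.

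**Figure D3:**
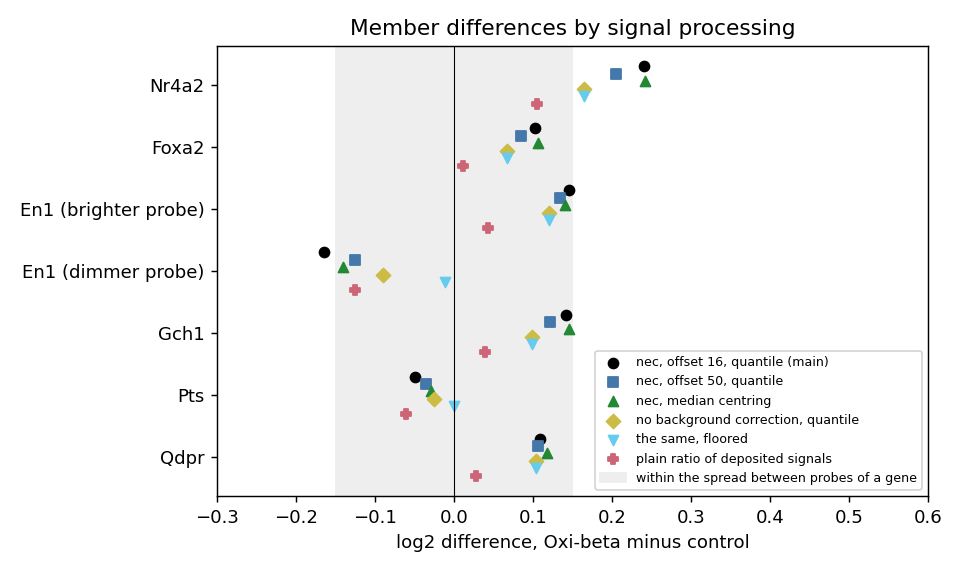
Log2 difference (overexpression minus control) of each member probe under 6 treatments of the same signals. The grey band covers differences up to 0.149 in either direction, the spread between probes of a gene. Under every treatment drawn, Nr4a2 is the farthest to the right, between 0.11 and 0.24, and the dimmer En1 probe is to the left of 0.

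The other genes of the same pathways showed no common direction. The 6 lists held 62 genes, of which 23 had a named probe and 22 were detected. A positive difference was found for 9 of the 22, beside 48.6% of all detected genes, and a negative one for 13. The median was -0.030. At 1.5-fold, 0 were higher, beside 0.582% of all detected genes, and 0 were lower, beside 0.433%. By plain ratio of the deposited signals, on which the median of all genes was -0.079, 5 of the 22 were positive, beside 25.1% of all detected genes. Spr, Ywhae, Rxrb and Hdac1 turned negative there by each gene's brightest probe, while a dimmer Rxrb probe stayed positive at 0.028. Both counts of positive genes lay near the share over all detected genes, so they mark nothing particular to these lists. In tetrahydrobiopterin metabolism, 3 of 7 further genes had a named probe, and all 3 were detected. Gchfr encodes the feedback regulatory protein of GTP cyclohydrolase. Its probes read 2044 and 2025 on the control array and 2098 and 1897 on the overexpression array, with differences of 0.13 and 0.001. Spr, the sepiapterin reductase gene that completes the pathway, was at 0.052 (signals of 831 and 804), and Cbr1, a carbonyl reductase gene of the salvage side, was at -0.024. None of the 7 listed enzymes that use tetrahydrobiopterin besides tyrosine hydroxylase, such as the nitric oxide synthases, had a named probe.

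Of the genes for dopamine transport, storage and breakdown, 2 of 8 had a named probe and 1 was detected. Aldh2, a mitochondrial aldehyde dehydrogenase that clears dopamine's aldehyde, read 14475 and 14851 on the control and overexpression arrays, a difference of 0.091. Maob, a monoamine oxidase gene, was not detected, at signals of 155 on each array. Among genes that support tyrosine hydroxylase and the decarboxylase, 7 of 9 had a named probe. All 7 were detected, 3 with a positive and 4 with a negative difference. Dnajc12, a co-chaperone of the aromatic amino acid hydroxylases, read 477 and 517 and was at 0.23, and Ywhae, a 14-3-3 gene, was at 0.081. The phosphatase subunit gene Ppp2cb was at -0.15, and Prkaca, a catalytic subunit of protein kinase A, was at -0.077.

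Among 18 further genes of midbrain dopamine development, 5 had a named probe. All 5 were detected, 1 with a positive and 4 with a negative difference. Sox6, a factor of a dopamine neuron subgroup, had its brightest probe at 0.12, with signals of 1162 and 1176, while of its 2 dimmer probes 1 was above the detection limit only after overexpression and the other on neither array. Cdkn1c, a cell cycle inhibitor that works with NURR1 in maturing dopamine cells, was at -0.28, from 262 to 225. Gfra1, a receptor of GDNF, was above the detection limit in the control alone, and was at least 1.04-fold lower after overexpression. Nr4a1 and Nr4a3, the close relatives of Nr4a2, had no named probe. Of 13 partners of the midbrain factors 6 had a named probe. All 6 were detected, 2 with a positive and 4 with a negative difference. Rxrb, a retinoid X receptor gene whose product pairs with NURR1, was at 0.048 by its brighter probe and 0.12 by its dimmer probe. Hdac1, a histone deacetylase gene, was at 0.054. Rcor1, the gene of the NURR1 co-repressor CoREST, was at -0.13. Ldb2, a gene of the LIM domain binding family that includes partners of LMX1B, was likewise read in the control alone (signals of 219 and 193). It was at least 1.16-fold lower after overexpression on the normalized scale.

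**Figure D4:**
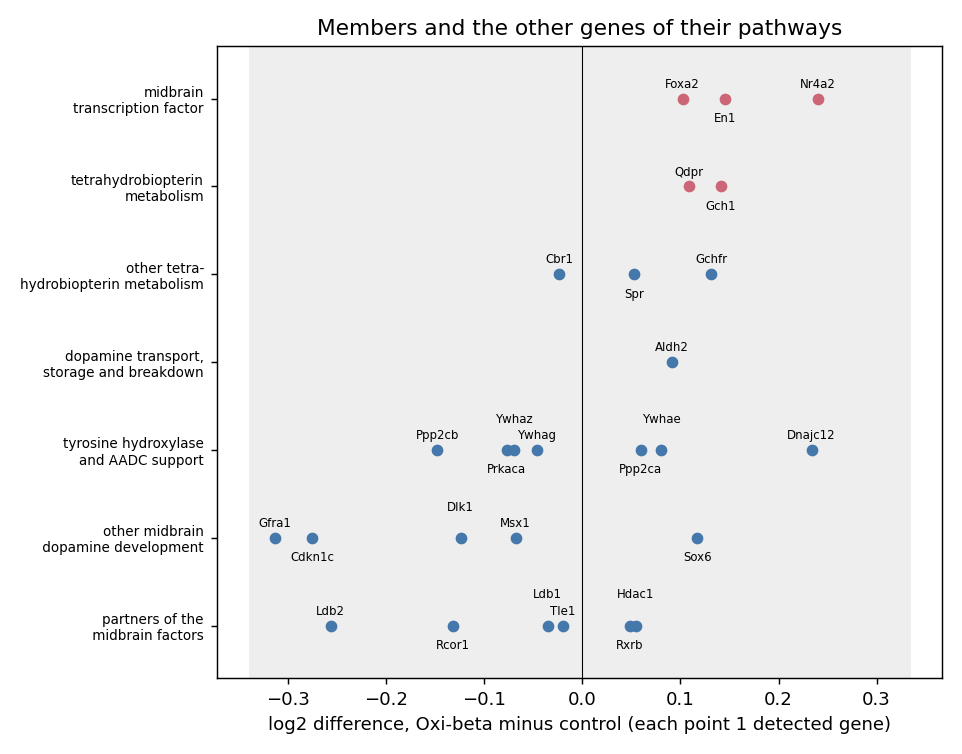
Log2 difference (overexpression minus control) of each detected member (red) and of each detected gene of the other pathway lists (blue), 1 point a gene by its brightest probe. The grey band is the central 95% of all detected genes, from -0.34 to 0.33. The 5 members lie to the right of 0, and the 22 other genes lie on both sides of it.

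Markers of other cell types were read beside these results, as sums of deposited signals. The summed signal of all 6702 detected genes fell by 4.50% between the control and the overexpression array. Of 9 fibroblast and mesenchymal markers, 6 were detected. All 6 had a negative difference by each gene's brightest probe, beside 3417 of the 6702 detected genes. The 2 dimmer Fn1 probes were positive, at 0.094 and 0.061. Vim, Col1a1, S100a4 and Fn1 differed by less than the spread between probes, while Sparc (-0.30) and Pdgfrb (-0.40) differed by more. Summed signals of this list were 80412 (control) and 71886 (overexpression), mostly from Vim (44580 and 40776). Of 15 pan-neuronal markers, 6 were detected, 4 with a positive and 2 with a negative difference and a median of 0.14, with summed signals of 6264 and 5546. The fall in that sum came mainly from Stmn2 (4050 and 3357) and Ncam1 (478 and 367). Nefm and Tubb3 were above the detection limit only after overexpression. On the normalized scale Nefm was then at least 1.285-fold and Tubb3 at least 1.066-fold higher. Their deposited signals were 185 and 226 for Nefm, and 181 and 202 for Tubb3. Of 8 noradrenergic and serotonergic markers, 2 were detected, namely Gata2 at -0.24 and Gata3 at -0.40, with summed signals of 1455 and 1167, and the defining genes Dbh, Slc6a2 and Slc6a4 had no named probe. Of 8 astrocyte markers, 3 were detected, with summed signals of 13684 and 13259, most of which belonged to Gja1 (12698 and 12294). Gja1 and Clu had positive differences of 0.002 and 0.18. Slc1a3 (239 and 182) was above the detection limit in the control alone. On the normalized scale it was at least 1.34-fold lower after overexpression. Its fitted difference of -0.63 is not taken as exact or as past 1.5-fold, since its reading after overexpression was not detected. The plain log2 ratio of Slc1a3 was -0.40. The oligodendrocyte, myeloid and endothelial lists had 1 detected gene each, and the list for glutamate, GABA and acetylcholine neurons had none. The part of any change in cell makeup in the members' differences was not tested, and in pooled RNA fewer cells of a type and less RNA per cell cannot be told apart.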

How the data were processed

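RNA pooled from 3 samples was hybridized to 1 Illumina array per group. BeadStudio is the tool named in the submitters' processing notes. The deposited non-normalized table gives, per the file headers, a signal intensity and a detection p-value for each of 24613 probes and array. Its test column was assigned to the overexpression sample, since the only other sample is the control. The authors' deposited value table holds log2 signals of 11090 probes, each of which passed a detection p-value of 0.05 on 1 or both arrays. Its log2 scale is read from the values, and the values are not centred per gene. The submitters name no genome build.

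Signals were background-corrected with limma 3.58.1 in R 4.3.3 (nec, offset 16, from the detection p-values), converted to log2 and quantile-normalized. The step was tested on simulated data in which only well-detected probes were changed, by folds larger than any member's. That test therefore says nothing about differences as small as the members', or about probes near the limit of detection. Quantile normalization assumes equal distributions on both arrays. The brightest named probe, by mean signal, stood for its gene. A fold written as "at least" sets the detected array against the higher of the lowest detected level and the probe's own level. It is a bound on the main normalized scale only and moves with the background model. For Nefm, Ldb2 and Slc1a3 the plain ratio of the deposited signals was smaller than that fold. Members and lists were chosen with earlier results of these data known. Every member probe is described, and from each pathway list up to 2 detected genes with the largest difference in each direction, plus genes named for having no reading. Markers of other cell types are given by list, and those named were chosen after their values were seen. Sequences are from RefSeq (GRCm38.p6). The number of arrays limits the precision.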

Additional observations from a re-analysis of the deposited data

How the results depend on the processing

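Leaving out a replicate was impossible with 1 array per group. No paired analysis was possible because each group had 1 array with no replicate number in the labels. At a detection p-value under 0.05, 6 members counted as detected in place of 5. Under 8 alternatives (offset 50, no background correction, plain ratios, median centring, floored signals, the authors' value table, the mean of a gene's detected probes, the looser detection limit) the members' median difference ran from 0.039 to 0.14, and the counts past 1.5-fold stayed at 0 in both directions. Of 41 values of single members, 39 were positive. The exceptions were En1 at -0.010 by the mean of its probes, 1 of which was undetected after overexpression, and Pts at -0.049 under the looser limit. All 41 values reprocess the same 2 arrays and are not independent. Values without background correction, with floored signals and in the authors' value table were equal to rounding for Nr4a2, Foxa2, En1, Gch1 and Qdpr. The dimmer En1 probe moved from -0.17 to -0.011 when signals were floored. The share of detected genes past 1.5-fold either way was 1.01%, and 0.340% among genes detected on both arrays. The medians of the pathway lists were recomputed under the 6 signal settings, a step chosen after seeing the data, as was the 1.1-fold count. The median of other tetrahydrobiopterin genes went from 0.052 to -0.049 by plain ratio, and that of tyrosine hydroxylase support from -0.047 to 0.006 by median centring. The medians of the other 3 lists kept their sign. The 1.1-fold count of members was 2 by the mean of probes. Signals near background limit Nr4a2, Foxa2, Gch1 and the dimmer En1 probe.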
